A study of Mus musculus with 4 samples.

Results

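The genes described here are those of the mouse major histocompatibility complex (MHC), the H2 complex, with the genes that supply peptides to MHC molecules or switch MHC genes on. Members were defined by symbol, and the set was chosen with earlier results of these data known. The rule named every gene of the array annotation with a single symbol starting with H2-. To these it added B2m, Cd74, Ciita, Nlrc5, Tap1, Tap2, Tapbp, Psmb8, Psmb9 and Psmb10. Each gene was represented by its probe set with the highest mean over the 4 arrays. Cd74 shared its only probe set with a microRNA and so was not a member by this rule. The rule gave 43 of the 22180 genes measured, 34 with an H2- symbol and 9 others. They were 22 class I genes, 11 class II genes, 6 class I processing genes, the class I light chain gene B2m, the transactivator genes Nlrc5 and Ciita, and H2-Ke6. H2-Ke6 has an H2- symbol, but it encodes a steroid dehydrogenase (Hsd17b8) and belongs to neither class.

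The samples came from N9, a mouse microglial line that has been immortalised; microglia are the resident macrophages of the brain. RNA of cells given 10 µM nimodipine was on 1 array, RNA of cells given 20 µM nimodipine on 1 array, and RNA of cells given vehicle on 2 arrays. All were grown in DMEM with fetal bovine serum, penicillin and streptomycin, and the sources used here give no treatment time. Nimodipine is a dihydropyridine that blocks L-type calcium channels, and the labels leave unsaid which vehicle sample matches which dose and whether cultures were separate.

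Class I molecules pair a polymorphic heavy chain with beta-2 microglobulin and show peptides from inside the cell to CD8+ T cells. These peptides are cut by the proteasome, in its interferon-induced form with the subunits encoded by Psmb8, Psmb9 and Psmb10, carried into the endoplasmic reticulum by the transporter TAP and loaded with the help of tapasin. Class II molecules are alpha and beta chain pairs that show peptides from endosomes to CD4+ T cells, and microglia are known to raise them when activated by interferon gamma. Nlrc5 switches on class I genes and Ciita class II genes, both through a shared promoter module to which the RFX complex, CREB or ATF factors and NF-Y bind.

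Values are log2 expression after robust multi-array averaging (RMA), and a difference is an array's value minus the mean of the 2 vehicle arrays. The labelled cell type was checked against microglia and macrophage markers. Of these, 9 of 10 were at or above 5.04, the median of all deposited values, and Adgre1 was below it. Of all genes 57.5% were at or above that level, so reaching it does not show that a cell type is present. At 10 µM 8 of the 10 microglia and macrophage markers had lower values, where 47.6% of all genes did, with a median difference of -0.16. The log2 of their summed level was 14.18 at 10 µM and 14.29 at 20 µM, against 14.29 and 14.30 on the vehicle arrays. The sum is of unlogged levels, so it leans on the brightest marker, Cd68, which differed by -0.005 at 10 µM. Itgam differed by -0.77 there, and Ptprc and Fcgr3 by -0.43 each. The 2 markers with higher values were Tyrobp (0.06) and Adgre1 (0.03). Of the markers of other cells that carry class II genes, 1 of 3 B-cell and 1 of 4 dendritic-cell genes reached the median. The log2 summed level of the B-cell markers was 6.45 at 10 µM and 6.26 at 20 µM, against 6.34 and 6.27 with vehicle. That of the dendritic-cell markers was 7.02 and 7.25 at the doses, against 7.06 and 7.11 with vehicle. Of the T-cell, astrocyte, neuron, oligodendrocyte and fibroblast or endothelial markers, 1 of 3, 2 of 3, 2 of 3, 2 of 2 and 2 of 5 reached the median, and the part of any marker in the results was not tested. In bulk RNA, fewer cells of a type and less RNA per cell cannot be told apart. In limma's fit of 3 groups, with Benjamini-Hochberg adjustment over 22180 genes, 353 genes were called at 10 µM, 113 higher and 240 lower. At 20 µM 0 were called, and 1418 had an unadjusted p under 0.05. The fit assumes that the lone array of a dose varies like the vehicle pair. Its standard errors and p-values therefore reflect only the difference between the 2 vehicle arrays, shared across genes and possibly technical. They hold no measure of how a dose array would vary.

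Promoter windows of some class I and class II members are shown so that the classes can be compared, with that of Tap1 for the start region it shares with Psmb9. Windows of H2-Ab1, Ciita and Nlrc5 were not used here. Each runs from 250 bases before to 50 bases after the gene start, on the gene's own strand, in RefSeq's GRCm38.p6. Capitals mark the motifs searched on both strands: CCAAT, the core of the Y box bound by NF-Y, and TGACG, the core of the X2 box bound by CREB or ATF factors. H2-K1 lies at chr17:34000298-34000597 (minus strand; the first of 2 windows listed), H2-Q4 at chr17:35379367-35379666 (plus), H2-Aa at chr17:34287774-34288073 (minus), H2-Oa at chr17:34092129-34092428 (plus) and Tap1 at chr17:34187306-34187605 (plus).
H2-K1: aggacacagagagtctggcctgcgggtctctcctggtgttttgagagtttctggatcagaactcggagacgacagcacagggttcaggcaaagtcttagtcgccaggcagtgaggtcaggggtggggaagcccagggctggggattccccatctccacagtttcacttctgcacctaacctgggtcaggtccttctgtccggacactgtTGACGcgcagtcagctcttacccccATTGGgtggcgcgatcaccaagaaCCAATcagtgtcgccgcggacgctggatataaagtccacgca
H2-Q4: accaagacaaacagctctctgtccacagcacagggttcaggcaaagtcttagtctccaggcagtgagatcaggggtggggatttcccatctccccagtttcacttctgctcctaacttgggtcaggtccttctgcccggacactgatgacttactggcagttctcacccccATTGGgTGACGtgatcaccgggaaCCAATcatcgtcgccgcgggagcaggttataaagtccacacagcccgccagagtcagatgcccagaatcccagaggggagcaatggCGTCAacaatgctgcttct
H2-Aa: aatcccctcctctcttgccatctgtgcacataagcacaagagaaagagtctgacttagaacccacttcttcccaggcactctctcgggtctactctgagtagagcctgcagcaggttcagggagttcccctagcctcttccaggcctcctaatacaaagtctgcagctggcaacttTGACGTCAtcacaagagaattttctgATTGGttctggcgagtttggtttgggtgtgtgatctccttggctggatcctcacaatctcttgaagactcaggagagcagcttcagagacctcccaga
H2-Oa: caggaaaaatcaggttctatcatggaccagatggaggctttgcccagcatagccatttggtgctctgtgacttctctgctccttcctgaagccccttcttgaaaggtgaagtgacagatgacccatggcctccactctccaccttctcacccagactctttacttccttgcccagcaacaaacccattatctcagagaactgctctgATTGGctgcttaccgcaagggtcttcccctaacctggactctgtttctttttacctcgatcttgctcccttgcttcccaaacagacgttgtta
Tap1: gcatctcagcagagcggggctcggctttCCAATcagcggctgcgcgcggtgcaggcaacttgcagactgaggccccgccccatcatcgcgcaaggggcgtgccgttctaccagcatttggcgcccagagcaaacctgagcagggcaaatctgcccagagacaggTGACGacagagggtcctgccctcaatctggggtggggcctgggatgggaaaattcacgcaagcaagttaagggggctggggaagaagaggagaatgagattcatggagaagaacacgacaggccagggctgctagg

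Windows were listed for 31 of the 43 members. CCAAT stood in 14 of 16 class I windows, 7 of 8 class II windows and 3 of 5 processing windows, against 37.4% of all 32851 promoter windows of the same length. TGACG stood in 8 of 16 class I, 1 of 8 class II and 2 of 5 processing windows, against 20.8% of all windows. In H2-Aa the TGACG matches of the 2 strands overlap, as TGACGTCA. The Tap1 window shares 275 bases with that of Psmb9, which lies on the other strand. Some matches lie after the gene start, as a CCAAT of H2-K1 that begins at base 8 and a TGACG of H2-Q4 at base 31. A match is a description of letters, and whether it is a Y or X2 box was not tested. Neither binding nor activity was measured.

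At 10 µM, several class I genes had higher values than with vehicle, while most class II and processing genes had lower ones, and no member passed the test. The class I median difference was 0.23, with 13 of 22 genes higher, and the class II median was -0.15, with 9 of 11 lower. The processing median was -0.25, with 5 of 6 lower. Over all genes the median was 0.01, with 52.4% higher and 47.6% lower. At 20 µM the medians were 0.02 for class I, 0.01 for class II and 0.03 for processing genes, against -0.00 over all genes. The same medians for vehicle 2 minus vehicle 1 were 0.15, 0.10 and 0.14, so the vehicle arrays differed from each other across these genes too. Without vehicle 1 as baseline, the 10 µM class I median was 0.12 and the class II median -0.24, and without vehicle 2 the processing median was -0.14. Among the 9 class I genes at or above the median level the 10 µM median was -0.02, with 4 higher and 5 lower. Among the 6 such class II genes it was -0.34. Of all genes at that level, 48.3% were higher and 51.7% lower.

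Set directly against each other, the class I median lay 0.38 above the class II median at 10 µM and 0.01 above it at 20 µM. For vehicle 2 minus vehicle 1 the same gap was 0.05. Over the genes at or above the median level, the gap was 0.32 at 10 µM and -0.26 at 20 µM, against 0.13 for vehicle 2 minus vehicle 1. The gap describes 1 array per dose and carries no test, since genes are not replicates.

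**Figure D1:**
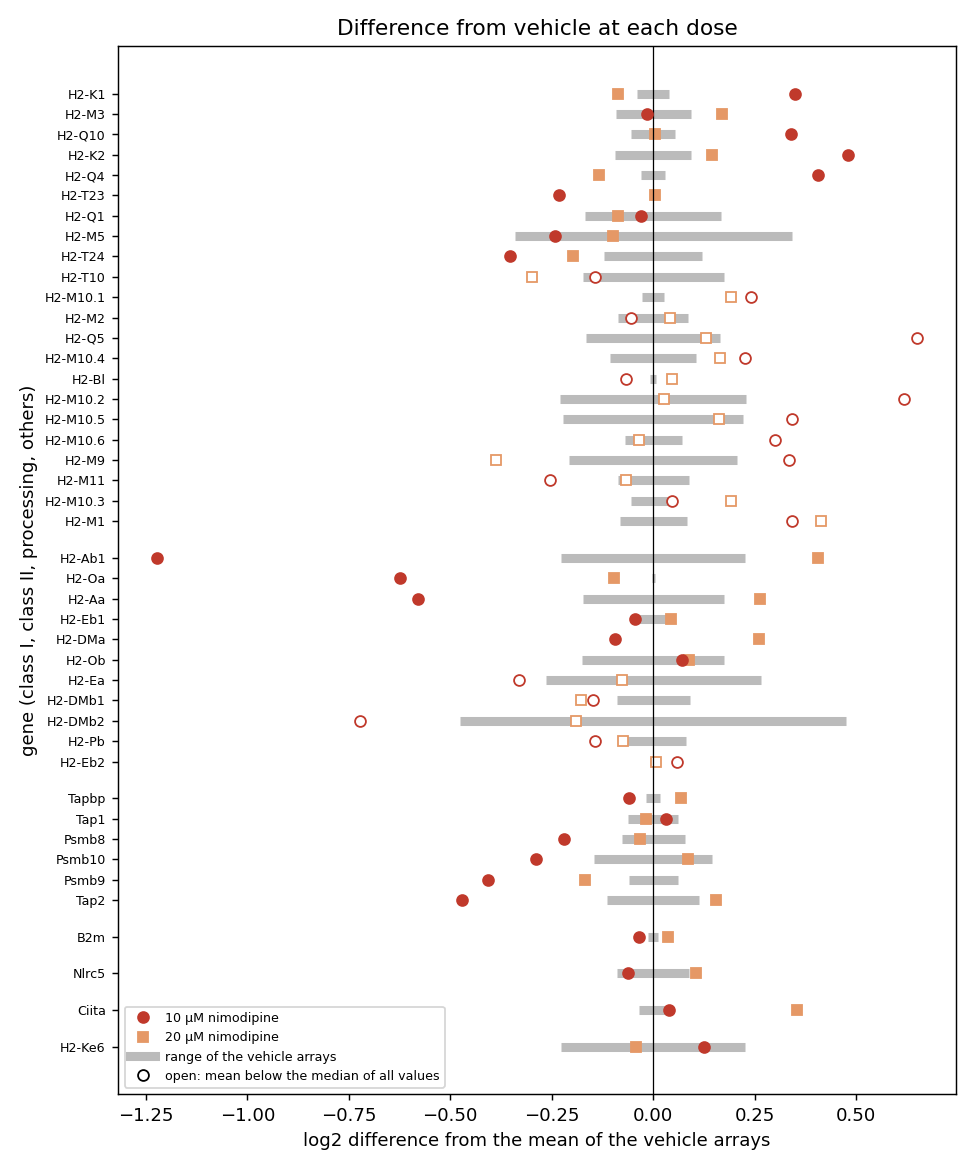
Log2 difference of each member from the mean of the vehicle arrays (x axis) for 10 µM (circles) and 20 µM (squares) nimodipine, with the range of the vehicle arrays as a grey bar and open symbols for genes with a mean below 5.04. H2-Ab1 at 10 µM lies farthest left at -1.22. At 10 µM 12 class I genes lie right of their grey bars, H2-K2, H2-Q4, H2-K1 and H2-Q10 among them, and 4 lie left of theirs.

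limma called 0 of the 43 members (adjusted p under 0.05) at 10 µM, where 1.59% of all genes were called, and 0 at 20 µM, where 0% were. Between 20 µM and 10 µM it called 0 members, against 0.316% of all genes, and in the comparison of the 2 nimodipine with the 2 vehicle arrays 0, against 0% of all genes. At an unadjusted p under 0.05 the counts were 9 members at 10 µM, against 16.9% of all genes, and 1 at 20 µM, against 6.39%. For 20 µM against 10 µM 7 members had such a p, against 13.7% of all genes. In the comparison of nimodipine with vehicle 1 member did, against 5.37% of all genes. The 9 of 43 members at 10 µM are near the share of all genes. Of them, 4 were higher, all class I, and 5 were lower, 3 of class II and 2 of processing. The higher ones were H2-K2, H2-Q4, H2-Q5 and H2-M10.2. H2-K2 and H2-Q5 are annotated as transcribed pseudogenes, and H2-Q5 and H2-M10.2 lay below the median level. The lower ones all reached that level. Among all genes with such a p at 10 µM, 1595 were higher and 2154 lower, and the split of members by class was not tested.

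On the 10 µM array 14 members lay above both vehicle arrays, where 39.1% of all genes did, and 18 lay below both, where 35.4% did. These were 12 above and 4 below in class I, 1 above and 8 below in class II, and 0 above and 5 below among the processing genes. On the 20 µM array 16 members lay above both vehicle arrays, against 34.5% of all genes, and 8 below both, against 35.1%. Among the 9 class I genes at or above the median level, 4 lay above both vehicle arrays at 10 µM and 2 below both. Among the 6 such class II genes the counts were 0 above and 4 below, against 37.7% above and 42.1% below for all genes at that level. At 20 µM these class I genes gave 3 above and 3 below and these class II genes 3 above and 1 below, against 31.5% and 40.3%.

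A difference of 1 or more on the log2 scale was reached by 1 member at 10 µM, H2-Ab1, which was lower, as were 1.06% of all genes. In the other direction the count was 0, against 0.514% of all genes. At 20 µM 0 members were that far from the vehicle mean, against 0.0361% of all genes higher and 0.0496% lower. For vehicle 2 against vehicle 1 the count was 0 as well, against 0.0451% higher and 0.0676% lower.

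H2-K1 encodes the classical class I heavy chain H-2K. It read 11.42 at 10 µM and 10.99 at 20 µM, against 11.03 and 11.11 on the vehicle arrays. The 10 µM array was the highest of the 4 and the 20 µM array the lowest. The 10 µM value was 1.27-fold that of vehicle (log2 difference 0.35 ± 0.146 SE, adjusted p = 0.307). H2-K2, its neighbour and annotated as a transcribed pseudogene, read 8.48 at 10 µM and 8.14 at 20 µM, against 7.90 and 8.09 with vehicle. Both doses lay above both vehicle arrays, by 1.39-fold at 10 µM (adjusted p = 0.215) and 1.10-fold at 20 µM (adjusted p = 0.885).

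The Q genes form the next class I cluster along the chromosome. H2-Q4 had 7.75 at 10 µM and 7.21 at 20 µM, against 7.37 and 7.31 with vehicle. The 10 µM array stood above the vehicle arrays and the 20 µM array below them (1.33-fold higher at 10 µM, adjusted p = 0.246). A dimmer probe set of H2-Q4 was 0.77 higher at 10 µM and 0.35 higher at 20 µM, so its probe sets differ in sign at 20 µM. H2-Q10, whose product is a secreted class I protein made mainly by the liver, read 8.64 at 10 µM and 8.31 at 20 µM, against 8.25 and 8.36 with vehicle. It was highest at 10 µM (1.27-fold, adjusted p = 0.324), and its dimmer probe set was 0.38 higher. H2-Q1 read 6.16 at 10 µM and 6.10 at 20 µM, against 6.02 and 6.36 with vehicle, and both doses lay between the vehicle arrays.

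Class I genes are close paralogues, and probe sequences were not used here, so whether 1 transcript gives signal on several probe sets was not tested. The annotation gives 4 probe sets to several Q-region or D-region genes together, and all 4 had higher values at 10 µM, by 0.28 to 0.60 on the log2 scale. That given to H2-Q6 and H2-Q8 read 8.61 at 10 µM and 7.44 at 20 µM, against 7.91 and 8.13 with vehicle. The doses thus lay on opposite sides of both vehicle arrays. The brighter of the 2 given to H2-Q7, H2-Q9 and H2-Q8 read 8.91 at 10 µM and 8.43 at 20 µM, against 8.37 and 8.35 with vehicle. The other read 7.47 at 10 µM and 6.86 at 20 µM, against 7.30 and 6.90 with vehicle. H2-Q7 and H2-Q9 encode Qa-2, a nonclassical class I antigen. The probe set given to H2-Q2 and H2-D1, where H2-D1 encodes a classical heavy chain, read 6.14 at 10 µM and 5.78 at 20 µM, against 5.92 and 5.80 with vehicle.

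The T and M genes are nonclassical class I genes. At 10 µM 0 of 4 T-region members and 8 of 12 M-region members had higher values than with vehicle, against 2 of 2 K-region and 3 of 4 Q-region members. Of all genes 52.4% had higher values. H2-T23, which encodes Qa-1, a ligand of the inhibitory receptor CD94-NKG2A, read 6.44 at 10 µM and 6.67 at 20 µM, against 6.67 and 6.66 with vehicle. The 10 µM array was the lowest, by -0.23 (adjusted p = 0.485). H2-T24 read 4.83 and 4.98 at the doses, against 5.06 and 5.30 with vehicle, both doses below both vehicle arrays. Over the 4 T-region members, H2-Bl counted among them, the 10 µM differences ran from -0.35 to -0.07. The probe set given to H2-T22 and H2-T9, ligands of a gamma delta T-cell receptor, read 5.93 at 10 µM and 6.11 at 20 µM, against 6.14 and 6.47 with vehicle. Its 10 µM difference was -0.37, while that of the probe set given to H2-T3 and H2-T18 was 0.03.

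H2-M3 presents N-formylated peptides, a mark of bacterial and mitochondrial proteins. It read 8.99 at 10 µM and 9.18 at 20 µM, against 8.92 and 9.10 with vehicle, and only the 20 µM array lay above both vehicle arrays. H2-M5 read 5.47 and 5.61 at the doses, between the vehicle values of 5.37 and 6.05. Below the median level lay 13 class I genes, with 10 µM differences of -0.25 to 0.65 and a median of 0.24. Of these, 9 were higher at 10 µM and 4 lower, where 52.4% of all genes were higher and 47.6% lower. The farthest, picked here after their values were seen, were the transcribed pseudogene H2-Q5, 0.65 higher with a second probe set 0.36 higher, and H2-M10.2, 0.62 higher. Of the 12 M-region genes 2 reached the median level, and the H2-M10 genes are known from the vomeronasal organ.

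**Figure D2:**
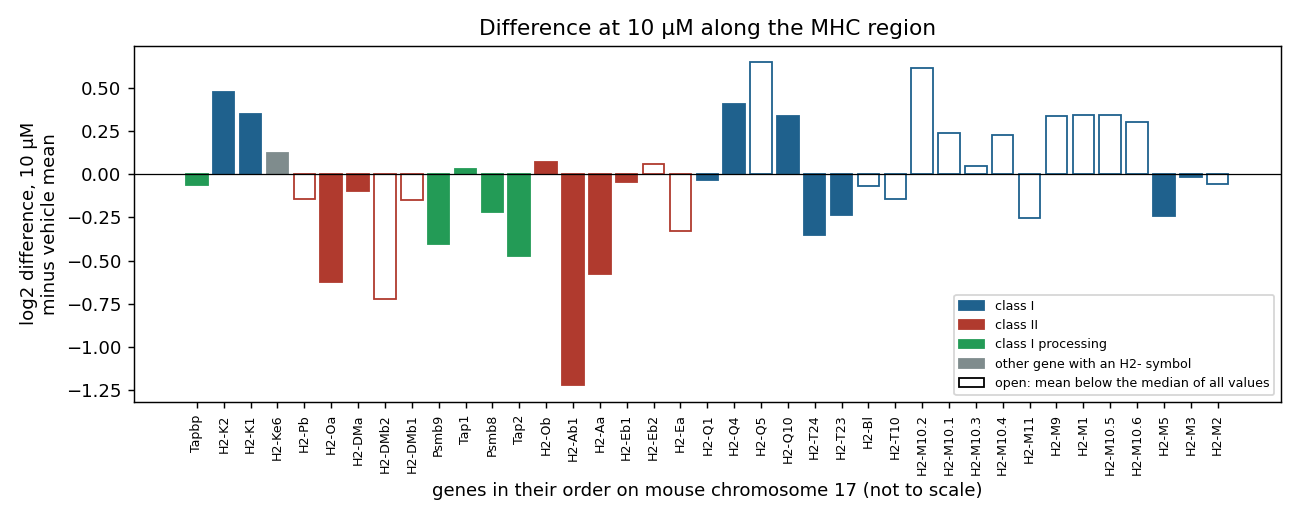
Log2 difference of the 10 µM array from the vehicle mean (bars) for the 39 members on mouse chromosome 17, in their order along the chromosome and coloured by class, with open bars for genes below the median of all values. The K genes and, except for H2-Q1, the Q genes stand above 0 on either side of the class II genes, of which H2-Ab1 is lowest at -1.22.

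H2-Ab1 and H2-Aa encode the beta and alpha chains of I-A, a class II molecule of the mouse. H2-Ab1 read 6.62 at 10 µM and 8.25 at 20 µM, against 7.61 and 8.07 with vehicle. The 10 µM array lay below both vehicle arrays and the 20 µM array above both. The 10 µM value was 2.34-fold lower than vehicle (log2 difference -1.22 ± 0.216 SE), with an adjusted p of 0.0643 in the fit of 3 groups. That p ranged from 0.0147 to 0.0793 over the alternatives, and the gene was called at 0.05 where dim probe sets were left out, with an eBayes trend, with cyclic loess and with equal array medians. At 20 µM it was 1.33-fold higher (0.41, adjusted p = 0.782). The vehicle arrays differed by 0.45, and against vehicle 1 alone the 10 µM difference was -0.997. The 20 µM value exceeded the 10 µM value by 1.63 ± 0.250 on the log2 scale (adjusted p = 0.0740, and 0.0143 to 0.0916 over the alternatives).

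H2-Aa, the partner chain, read 6.32 at 10 µM and 7.16 at 20 µM, against 6.73 and 7.07 with vehicle. Its arrays stood in the same order as those of H2-Ab1, with smaller gaps, 1.49-fold lower at 10 µM (-0.58, adjusted p = 0.213) and 0.26 higher on the log2 scale at 20 µM (adjusted p = 0.815). The 20 µM value exceeded the 10 µM value by 0.84 (adjusted p = 0.194). Of I-E, another class II molecule, H2-Eb1, the beta chain gene, read 6.59 at 10 µM and 6.68 at 20 µM, against 6.58 and 6.68 with vehicle. H2-Ea, the alpha chain, a transcribed pseudogene in the RefSeq table, was below the median level, with 4.54 and 4.79 at the doses, against 4.60 and 5.13 with vehicle. H2-Eb2 was dimmer still, with 3.53 and 3.47 at the doses, against 3.46 and 3.48 with vehicle.

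H2-Oa and H2-Ob form H2-O, which holds back the peptide exchange factor H2-M. H2-Oa read 6.72 at 10 µM and 7.25 at 20 µM, against 7.34 and 7.35 with vehicle. Both doses lay below the nearly equal vehicle arrays, by 1.54-fold at 10 µM (-0.62 ± 0.143 SE, adjusted p = 0.113) and 1.07-fold at 20 µM (adjusted p = 0.920). With dim probe sets left out or an eBayes trend, limma called H2-Oa at 10 µM (adjusted p = 0.0334 and 0.0491). A dimmer probe set, which the annotation gives to H2-Oa and BC051537 together, was 0.10 higher at 10 µM, opposite in sign. H2-Ob read 5.12 and 5.14 at the doses, between the vehicle values of 5.23 and 4.88.

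H2-DMa and H2-DMb1 or H2-DMb2 encode the chains of H2-M, which removes the CLIP peptide from class II molecules. H2-DMa read 6.31 at 10 µM and 6.66 at 20 µM, against 6.40 on each vehicle array, lowest at 10 µM and highest at 20 µM. H2-DMb1 read 4.30 and 4.27 at the doses, against 4.36 and 4.54 with vehicle. H2-DMb2 read 3.78 and 4.31, against 4.03 and 4.98, and its vehicle arrays lay 0.95 apart. Against vehicle 2 alone its 10 µM difference was -1.20, and against both -0.72. The pseudogene H2-Pb read 3.57 and 3.64 at the doses, against 3.80 and 3.63 with vehicle.

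**Figure D3:**
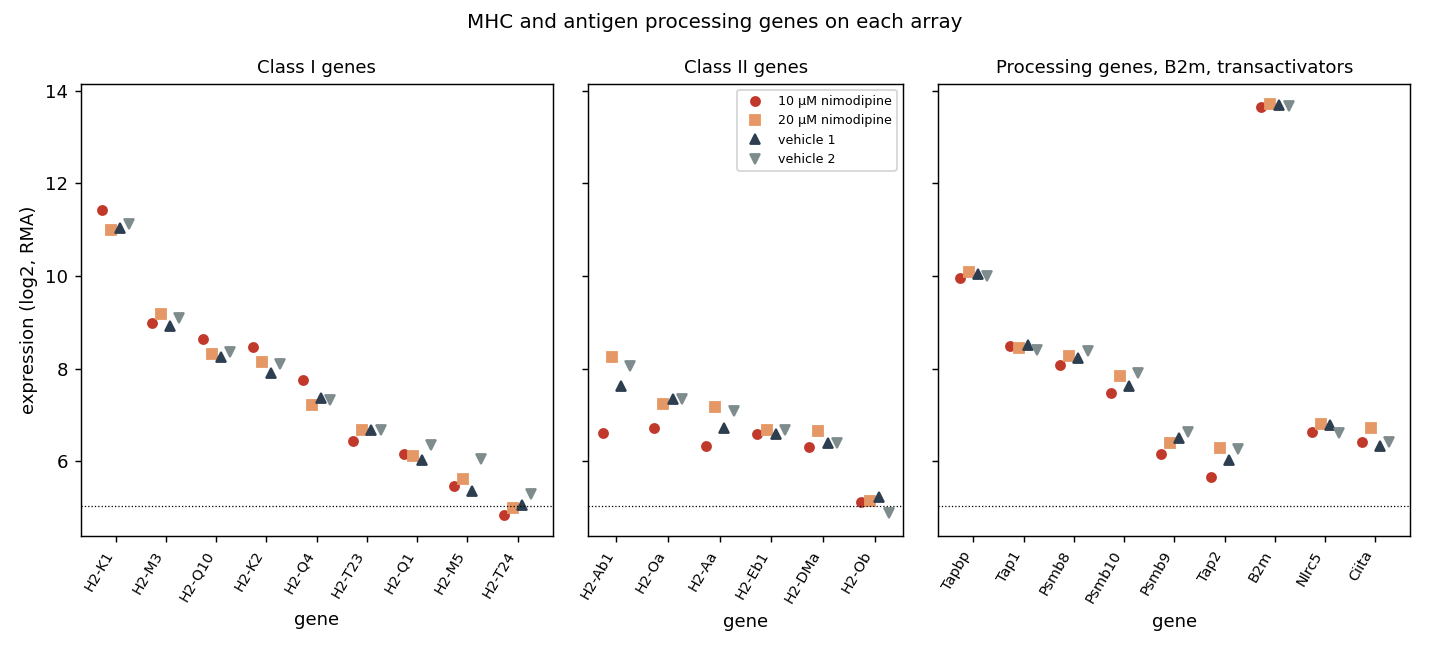
Log2 RMA expression (y axis) of the 24 members of class I, class II, processing and regulatory roles whose mean reaches the median of all values (dotted line), on each of the 4 arrays. H2-Ab1, H2-Aa and H2-Oa are lowest on the 10 µM array, H2-K1 and H2-Q4 are highest there, and the 4 points of B2m nearly coincide.

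The probe set that the annotation gives to Cd74 and Mir5107 stands for the invariant chain, the class II chaperone, as far as it can be told apart. It read 13.36 at both doses, against 13.29 and 13.35 with vehicle. Ciita, the transactivator of class II genes, read 6.41 at 10 µM and 6.72 at 20 µM, against 6.33 and 6.41 with vehicle. Only the 20 µM array stood clear of the rest (0.35 higher, adjusted p = 0.762), and at 10 µM Ciita differed from vehicle by 0.04 (adjusted p = 0.935). Its part in the class II values was not tested. Nlrc5, the class I transactivator, read 6.64 and 6.81 at the doses, against 6.79 and 6.61 with vehicle. B2m, the gene of the light chain that pairs with class I heavy chains, read 13.64 at 10 µM and 13.71 at 20 µM, against 13.68 and 13.66 with vehicle.

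Among the processing genes, Tap1 and Tap2 encode the subunits of the TAP transporter and gave different values at 10 µM. Tap1 read 8.49 at 10 µM and 8.44 at 20 µM, against 8.52 and 8.40 with vehicle, and both doses lay between the vehicle arrays. Tap2 read 5.67 at 10 µM and 6.29 at 20 µM, against 6.03 and 6.25 with vehicle. It was lowest at 10 µM, by 1.39-fold (-0.47, adjusted p = 0.238). Psmb9, which shares its start region with Tap1 as shown in the Tap1 window, read 6.16 and 6.40 at the doses, against 6.50 and 6.62 with vehicle. Both doses lay below both vehicle arrays (1.32-fold lower at 10 µM, adjusted p = 0.257).

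The other immunoproteasome subunits were also lowest at 10 µM. Psmb8 read 8.08 at 10 µM and 8.27 at 20 µM, against 8.22 and 8.38 with vehicle. Psmb10 read 7.47 at 10 µM and 7.85 at 20 µM, against 7.62 and 7.91 with vehicle. Their 10 µM differences were -0.22 and -0.29, with adjusted p of 0.546 and 0.483. Tapbp, which encodes tapasin, read 9.97 and 10.09 at the doses, against 10.04 and 10.01 with vehicle, and its dimmer probe set was 0.32 higher at 10 µM, so the sign at 10 µM depends on the probe set. H2-Ke6 read 7.88 at 10 µM and 7.71 at 20 µM, against 7.53 and 7.98 with vehicle.

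The constitutive proteasome subunits that the immunoproteasome subunits replace were also measured. Psmb5 read 9.45 at 10 µM and 9.10 at 20 µM, against 8.64 and 9.14 with vehicle. Psmb7 read 10.41 and 10.19 at the doses, against 9.98 and 10.07 with vehicle. Psmb6 read 10.63 and 10.53, against 10.48 and 10.59. All 3 were higher at 10 µM, by 0.56, 0.38 and 0.09, where 52.4% of all genes were higher, and 0 of 3 were called.

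Beyond the members, 72 of 81 listed genes of antigen presentation and its regulation were measured, in 8 lists. limma called 3 higher and 1 lower at 10 µM, where 353 of all 22180 genes (1.59%) were called, 113 higher and 240 lower. At 20 µM it called 0 listed genes, against 0% of all genes. Rfx5, a subunit of the RFX complex that binds the X box of class I and class II promoters, fell to 8.24 at 10 µM, against 9.31 and 9.29 with vehicle. This was 2.09-fold lower (adjusted p = 0.0366), and the 20 µM array read 9.44. Of the 7 promoter-binding factors measured, 6 were lower at 10 µM, where 47.6% of all genes were. Their median was -0.11, and 1 was called. Rfxank, another RFX subunit, differed by -0.18, Nfyb by -0.23 and Nfya by -0.11, the last pair being subunits of NF-Y.

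Hspa5, the endoplasmic reticulum chaperone BiP, rose to 11.53 at 10 µM, against 10.25 and 10.36 with vehicle (2.35-fold, adjusted p = 0.0296), and read 10.49 at 20 µM. It was the 1 call among 8 class I loading and trimming genes, whose median was 0.08. Pdia3 and Calr, parts of the peptide-loading complex, were 0.30 and 0.24 higher, and the trimming enzyme gene Erap1 differed by -0.25. Among 7 class I-like genes outside the H2 complex 0 were called, with a median of -0.01. There Mr1, which presents vitamin B metabolites, differed by -0.68 at 10 µM, Ulbp1, an NKG2D ligand, by -0.69, Fcgrt, the neonatal Fc receptor, by -0.64, and Hfe, a regulator of iron uptake, by 0.64. Fcgrt was 0.68 higher at 20 µM.

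Cd40, the costimulatory receptor, rose to 7.55 at 10 µM, against 6.41 and 6.34 with vehicle (2.26-fold, adjusted p = 0.0314), and read 6.40 at 20 µM. It was the 1 call among 10 genes of class II processing and costimulation, whose median was 0.07. Cd80 and Cd86, the ligands of CD28, differed in opposite directions, by -0.86 and 0.41, and the endosomal protease gene Ctsl was 0.56 higher. None of these 3 was called.

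Of 13 genes of interferon signalling 0 were called, and their median was 0.00. The interferon gamma receptor gene Ifngr1 differed by -0.48, Irf2 by -0.61, Irf9 by -0.50 and Jak2 by 0.47. Of 19 interferon-response genes, 7 reached the median level and 1 was called. Gbp8, a guanylate-binding protein gene, rose to 8.76 at 10 µM, against 5.59 and 5.23 with vehicle (log2 difference 3.35, adjusted p = 0.00531), and read 5.56 at 20 µM. Usp18, which removes ISG15 from proteins, differed by -1.26 (adjusted p = 0.0535), the GTPase gene Igtp by -0.64 and the chemokine gene Cxcl10 by 0.70. Of 5 proteasome activator and assembly genes 0 were called, with a median of 0.15. Of these, Psme2, Pomp and Psme4 were 0.20, 0.20 and 0.15 higher, and Psme3 differed by -0.06.

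**Figure D4:**
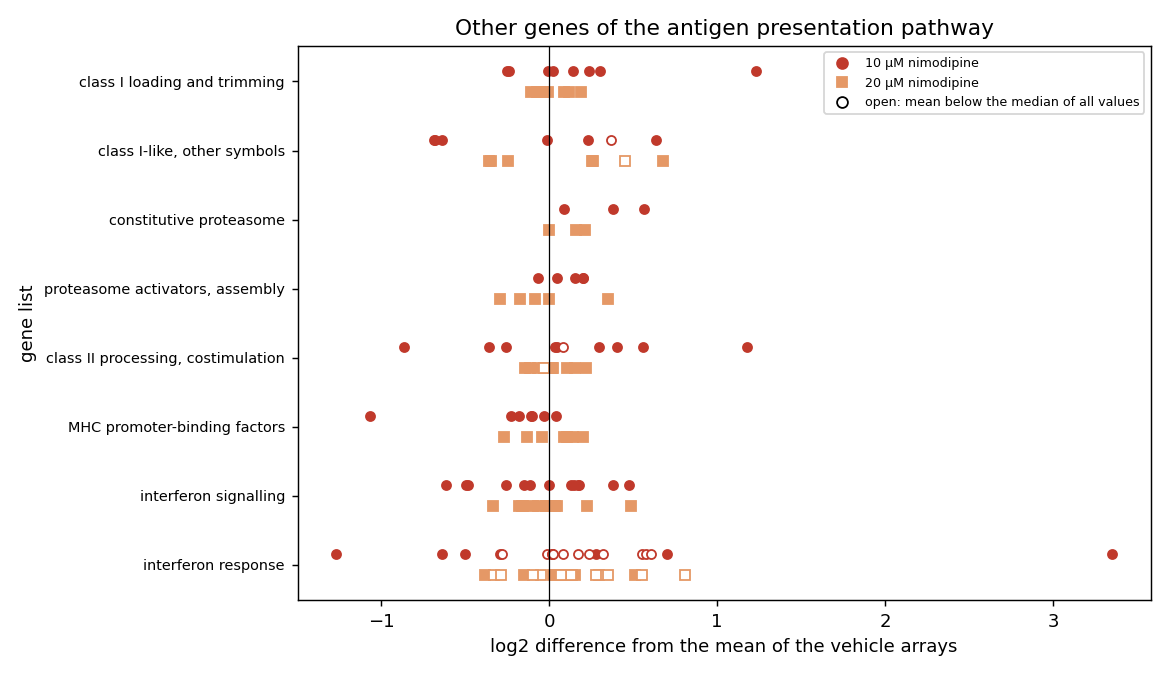
Log2 difference from the vehicle mean (x axis) of each measured gene of the 8 lists (y axis) at 10 µM (circles) and 20 µM (squares), with open symbols for genes whose mean lies below the median. Gbp8, Hspa5 and Cd40 at 10 µM lie past 1 on the right and Rfx5 and Usp18 past -1 on the left, while at 20 µM no listed gene is that far from 0.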

How the data were processed

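RNA of N9 cells was measured on 4 Affymetrix arrays (labelling with the WT PLUS kit, per the labels). The authors deposited log2 expression, 1 value per probe set and array; per the submitters' processing notes, RMA and Affymetrix Expression Console (version 1.2.1.20) were used. RMA sets the arrays to a common distribution, which hides any shift that most genes have in common, and there is no detection call. The genome build behind the annotation is not given in the sources used here. The number of arrays limits the precision.

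Of 41345 probe sets, the annotation gave 1 symbol to 23521 and several to 1814, and it did not list 16010. Taking per gene the probe set with the highest mean left 22180 genes. RefSeq tables (GRCm38.p6) gave gene order, biotypes, matched by symbol, and promoter windows. limma 3.58.1 (R 4.3.3, lmFit and eBayes, Benjamini-Hochberg, threshold 0.05) was fitted to all genes, once with 2 nimodipine against 2 vehicle arrays and once with 3 groups, and tested on simulated data. In the simulation every array varied by the spread of the vehicle pair. It therefore could not check whether a dose array varies like that pair. The doses share the vehicle arrays, so no overlap between them was computed. Alternatives changed the dim filter, probe set choice, scaling, eBayes options, threshold and arrays.

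Members, lists and tests were chosen with earlier results of these data known. Named with values were members whose mean reached the median of all values, every class II gene, Cd74, Ciita, Nlrc5, any member past 1 on the log2 scale or called, up to 4 genes of each other list by 10 µM difference among those at or above the median, and Psmb5, Psmb6 and Psmb7. H2-Q5 and H2-M10.2 fall outside this rule and were named after their values were seen.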

Additional observations from a re-analysis of the deposited data

How the results depend on the processing

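In the comparison of nimodipine with vehicle arrays, limma called 0 members under every alternative that kept all 4 arrays, against 0% of all genes each time. Fits that left out an array are not counted here. At 20 µM it likewise called 0 members under each alternative, again against 0% of all genes. At 10 µM the count of 0 became 1 (H2-Ab1) at a threshold of 0.1, with cyclic loess and with equal array medians, where the share called of all genes became 3.64%, 2.52% and 2.95%. It became 2 (H2-Ab1 and H2-Oa), of 25 members with dim probe sets left out and of 43 with an eBayes trend, where 10.04% and 5.30% of all genes tested were called. Between 20 µM and 10 µM it became 1 (H2-Ab1) under these 5 alternatives, where 1.10% (cyclic loess) to 5.78% (dim left out) of all genes were called, against 0.316% as reported. The gained calls thus came with more calls over all genes. Members past 1 on the log2 scale at 10 µM numbered 0 to 2 when a vehicle array was left out, 0 without vehicle 2 and 2, H2-Ab1 and H2-DMb2, without vehicle 1.

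With either vehicle array left out, the 10 µM medians ran from 0.12 to 0.18 for class I, -0.24 to -0.10 for class II and -0.36 to -0.14 for processing genes, and the gap between class I and class II from 0.28 to 0.36. At 20 µM the class II median ran from -0.00105 to 0.0942 and the gap from -0.0453 to -0.0253. With dim probe sets left out, the 10 µM medians were -0.016 for class I and -0.34 for class II and the gap 0.32, and at 20 µM the class II median was 0.18 and the gap -0.26. Genes with a classical class I symbol alone, H2-K1 and H2-K2, had a 10 µM median of 0.41. The cause of these moves was not tested. Of 300 values of named members under alternatives 34 changed sign, none of them above 0.24 in size as reported. H2-Q4 at 20 µM (0.11) and Tapbp at 10 µM (0.13) did so with the mean of their probe sets. No paired analysis was possible because each dose has 1 array, so groups share fewer than 2 replicate numbers. Limits are 1 array per dose, 2 vehicle arrays, no detection call and 18 members below the median level, where folds can be too small.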

Other observations

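The annotation gives 2 further probe sets to a member together with a gene outside the set. The one given to H2-Oa and BC051537 read 4.98 at 10 µM and 5.01 at 20 µM, against 5.01 and 4.76 with vehicle. The one given to Tapbp and Zbtb22 read 6.61 at 10 µM and 6.53 at 20 µM, against 6.44 and 6.21 with vehicle. A probe set that holds no member, given to H2-T3 and H2-T18, the thymus leukaemia antigen genes, read 4.58 at 10 µM and 4.62 at 20 µM, against 4.41 and 4.68 with vehicle.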
